A study of Mus musculus with 6 samples.

Results

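This account follows 10 genes that detect DNA damage or place and read ubiquitin on the chromatin around it, upstream of the BRCA1-A complex. They were chosen by name as the probe sets whose Entrez Gene numbers map to Nbn, Rad50, Atm, Atr, Chek1, Chek2, Mdc1, Rnf8, Rnf168 and Trp53bp1. All 10 were found among the 23185 named genes on the arrays. The data come from 6 Affymetrix Mouse Gene 2.0ST arrays, of which 3 hold RNA of wild-type (WT) and 3 of Merit40-/- mice, all of young age. RNA came from untreated, freshly isolated bone marrow hematopoietic stem cells (HSCs) that were double sorted as CD150+CD48-LSK cells. LSK cells lack lineage markers and carry Sca-1 and c-Kit. The labels state neither the allele behind Merit40-/-, nor the sex of the mice, nor how many mice an array stands for, so p-values measure only the spread between arrays.

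A double-strand break is first bound by the MRN complex of Mre11, Rad50 and Nbn, which recruits and activates the kinase ATM. Its relative ATR answers to single-stranded DNA, and both kinases act through the checkpoint kinases CHK1 and CHK2. ATM phosphorylates histone H2AX, the adaptor MDC1 binds that mark, and the ubiquitin ligases RNF8 and then RNF168 add ubiquitin to chromatin. That ubiquitin draws in 53BP1, encoded by Trp53bp1, and the BRCA1-A complex, whose subunit Merit40 is encoded by Babam1. In HSCs, which are mostly quiescent, this pathway guards a genome that is passed to all blood cells.

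Values are log2 expression values, so that a difference of 1 is a 2-fold difference, and differences are Merit40-/- minus WT with the standard error (SE) of limma. Array medians over all probe sets were 4.91 to 4.97, and Pearson's r across probe sets was 0.987 to 0.988 within WT and 0.984 to 0.985 within Merit40-/-. The deleted gene Babam1 lay between 7.91 and 8.05 in WT and between 3.87 and 4.29 in Merit40-/-, so each array matched its label. All 10 measured HSC markers, Kit and Slamf1 (CD150) among them, lay above the median level of all genes (4.93), as did 7 of 11 measured genes on a list of markers of excluded or mature blood cells. Among the 7 were the sort-negative marker Cd48 (5.42 in WT and 5.39 in Merit40-/-) and the granulocyte marker Ly6g, named after its values were seen. Ly6g read 5.88, 6.24 and 6.42 in WT and 7.66, 6.97 and 6.35 in Merit40-/-. Its difference was 0.81 (SE 0.31), with an unadjusted p of 0.0290 and an adjusted p of 0.999 in limma. On the same list, Itgam differed by 0.30 (SE 0.22) and Ly6c2 by -0.18 (SE 0.22). Of the 11 genes, 6 had lower and 5 higher means in Merit40-/-, with a median difference of -0.026. The T and B cell markers Cd3e, Cd4, Cd8a and Ms4a1 lay below the median level of all genes. A list of 16 skeletal muscle markers averaged 7.47 on Merit40-/- replicate 1 against 4.50 to 4.73 on the other 5 arrays, and 10 osteoclast markers averaged 5.78 on Merit40-/- replicate 3 against 4.67 to 4.82. On those arrays 14 of the 16 muscle markers and 6 of the 10 osteoclast markers, respectively, were at their highest. The fit without both of those arrays leaves a single Merit40-/- array, assumed to vary like the WT arrays. It was added after seeing the data. Its values are given for the 10 genes as a group and some of them singly, and for the 5 pathway lists together. They are also given for the list genes whose arrays did not overlap. Its values for the chromatin ubiquitin list, Ube2n, Ube2v2, Pias4, Kmt5c and Cdc25a were chosen after they were seen.

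None of the 10 genes passed the test, and the differences were small. In RNA of sorted bulk cells, a lower value from fewer cells of a type and from less RNA per cell cannot be told apart. Over all genes, 1 of 23185 (0.00431%) passed an adjusted p of 0.05 in limma with Benjamini-Hochberg adjustment, and that gene was Babam1. At an unadjusted p under 0.05 in limma, 1 of the 10 genes passed, Rnf8, where 4.22% of all genes did. The mean was lower in Merit40-/- for 9 of the 10 genes and higher for Trp53bp1, with differences from -0.35 to 0.053 and a median of -0.079, while the median over all genes was 0.0052 and 48.5% of all genes had a lower mean. None of the 10 genes had a 95% interval that reached a 2-fold difference, as was so for 96.4% of all genes. The widest bound among the 10 intervals was 1.52-fold, for Rnf8, and the narrowest outer bound was 1.25-fold, for Chek2. With Merit40-/- replicates 1 and 3 both left out, 7 of the 10 genes were higher and 3 lower, their median was 0.068, and 0 of the 10 had an unadjusted p under 0.05 in limma, where 6.36% of all genes did.

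**Figure D1:**
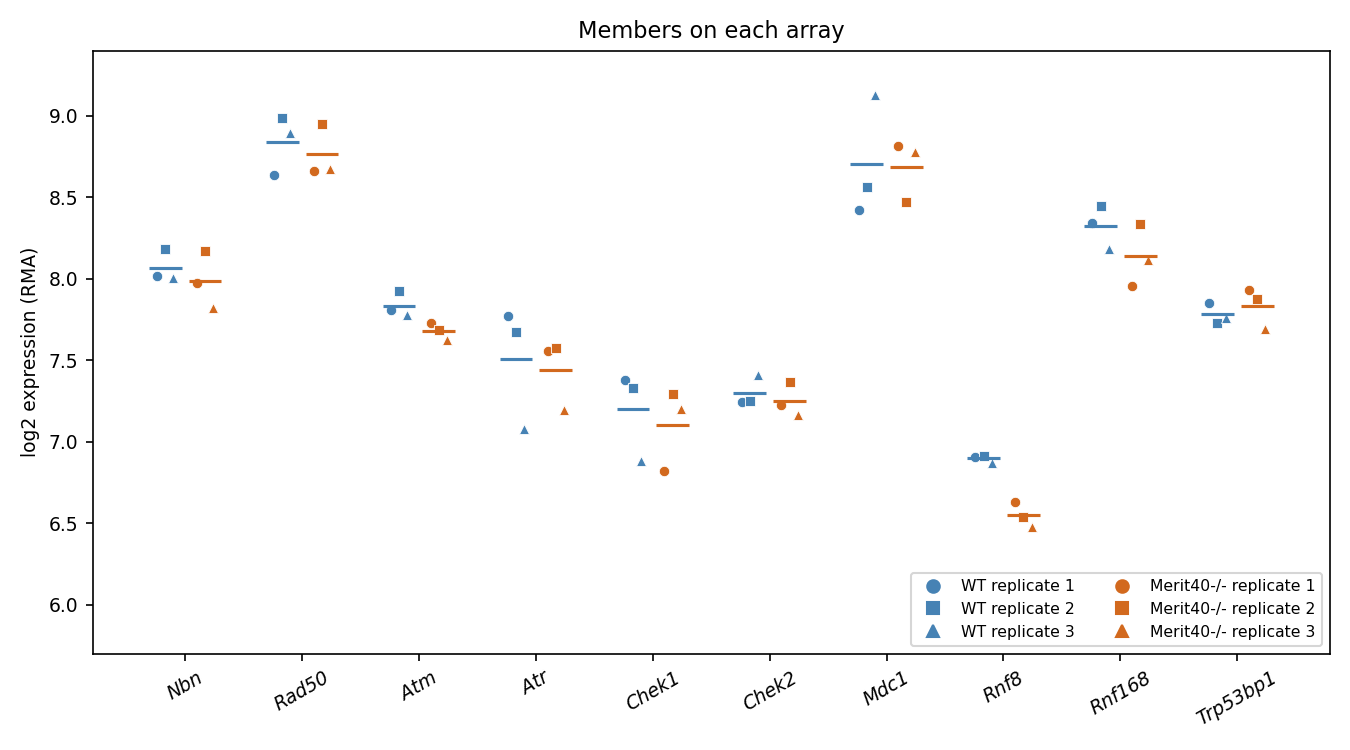
Log2 expression (RMA) of the 10 genes on each array, with WT arrays in blue, Merit40-/- arrays in orange, 1 symbol per replicate number and a bar at each group mean. The arrays of the 2 genotypes separate for Rnf8 and, by a narrow gap, for Atm, and overlap for the other 8 genes.

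The ubiquitin ligase gene Rnf8 had the largest difference of the 10. Rnf8 (Entrez Gene 58230) read 6.91, 6.92 and 6.87 in WT and 6.63, 6.54 and 6.48 in Merit40-/-. All 3 Merit40-/- arrays were lower than all 3 WT arrays, with a gap of 0.24 between the groups, and the WT arrays lay within 0.043 of each other. The group levels were 6.90 ± 0.023 (SD, n = 3) and 6.55 ± 0.077 (SD, n = 3). The difference was -0.35 (SE 0.11, 95% interval -0.60 to -0.096), which is 21.5% lower, with an unadjusted p of 0.0130 and an adjusted p of 0.999 in limma. In limma 222 other genes had a smaller unadjusted p. Leaving out single arrays gave differences of -0.39 to -0.31, and leaving out Merit40-/- replicates 1 and 3 together gave -0.36 with an unadjusted p of 0.0677 in limma.

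Rnf168 encodes the ligase that acts after RNF8 and spreads the ubiquitin mark on H2A-type histones. Rnf168 (Entrez Gene 70238) read 8.34, 8.45 and 8.19 in WT and 7.96, 8.34 and 8.12 in Merit40-/-. Replicates 1 and 3 of Merit40-/- were below all WT arrays, whereas Merit40-/- replicate 2 lay among them. The difference was -0.19 (SE 0.14, 95% interval -0.51 to 0.14; adjusted p = 0.999 in limma). It was -0.29 without Merit40-/- replicate 2 and 0.011 without Merit40-/- replicates 1 and 3.

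The upstream kinase gene Atm was the other gene whose arrays did not overlap. Atm (Entrez Gene 11920) read 7.81, 7.92 and 7.78 in WT and 7.73, 7.69 and 7.62 in Merit40-/-. The groups were separated by only 0.047, less than the spread of 0.15 within WT or of 0.11 within Merit40-/-. The difference was -0.16 (SE 0.11, 95% interval -0.41 to 0.10), with an unadjusted p of 0.201 and an adjusted p of 0.999 in limma. Thus 2 of the 10 genes, Rnf8 and Atm, did not overlap between genotypes, both lower in Merit40-/-, where 9.05% of all genes did not overlap in either direction and 4.22% did so as lower. Exact 2-sided permutation tests gave p = 0.1 for each, below which a comparison of 3 with 3 arrays cannot go. With fewer arrays more of all genes did not overlap. The count was 5 of the 10 without WT replicate 3, which added Atr, Chek1 and Rnf168, beside 19.3% of all genes. It was 5 without Merit40-/- replicate 2, which added Chek2, Rnf168 and Nbn, beside 19.0%, and 3 without Merit40-/- replicate 3, which added Trp53bp1 as higher, beside 19.5%. Without Merit40-/- replicates 1 and 3 together it was 3, again with Trp53bp1, beside 50.9%.

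The promoters of Rnf8 and Atm are shown because these were the members whose arrays separated. The sequences are RefSeq's (GRCm38.p6), 250 bases before to 50 bases after the gene start, 5′ to 3′ on the strand of the gene, with matches to the motif of the transcription factor NRF1 (GCGC, then A, then any base, then GCGC) in capitals. The Rnf8 promoter is chr17:29614539-29614838 on the plus strand and the Atm promoter chr9:53536622-53536921 on the minus strand.
Rnf8: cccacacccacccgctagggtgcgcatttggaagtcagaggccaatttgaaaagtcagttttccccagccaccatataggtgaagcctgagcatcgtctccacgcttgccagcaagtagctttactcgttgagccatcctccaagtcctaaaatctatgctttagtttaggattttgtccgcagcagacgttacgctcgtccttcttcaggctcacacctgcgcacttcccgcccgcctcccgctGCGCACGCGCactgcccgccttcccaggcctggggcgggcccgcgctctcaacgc
Atm: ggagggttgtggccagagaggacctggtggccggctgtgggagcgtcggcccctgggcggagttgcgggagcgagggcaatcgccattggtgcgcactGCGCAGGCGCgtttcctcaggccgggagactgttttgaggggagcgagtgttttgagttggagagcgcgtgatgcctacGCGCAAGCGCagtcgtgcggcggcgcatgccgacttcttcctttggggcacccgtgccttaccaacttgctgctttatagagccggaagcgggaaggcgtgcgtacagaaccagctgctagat

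The Rnf8 promoter held 1 such match, beginning 5 bases before the gene start, and the Atm promoter held 2, beginning 152 and 73 bases before it. RefSeq promoters were found for 8 of the 10 genes, all but Nbn and Rad50, and 6 motifs were searched on both strands. The NRF1 motif was in 2 of the 8, Rnf8 and Atm, and in 4.63% of all 32544 promoters of that length. An E2F motif (TTTCGCGC, TTTGGCGC, TTTCCCGC or TTTGCCGC) was in 2, Chek2 and Mdc1, against 2.28% of all promoters. The ETS motif CCGGAAGT was in Rnf168 alone (3.92% of all promoters) and the CCAAT box in 4 (37.4%). The element TTTGAA was in Rnf8 alone (17.8%) and the TATA box letters TATAAA in Atm alone (13.6%). This Atm match was on the opposite strand, as TTTATA, and began at the gene start rather than before it. The promoters of Atr, Chek1 and Trp53bp1 held no exact match to any of the 6. A match cut by the edge of the window is missed. The Chek1 window ends in GCGGGAA, the first letters of the E2F match GCGGGAAA found in Chek2, and the next base was not searched. In Rnf8 the TTTGAA match overlaps the end of the CCAAT match. A match describes letters in a window, no binding was measured, and the part of any motif in the members' values was not tested.

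**Figure D2:**
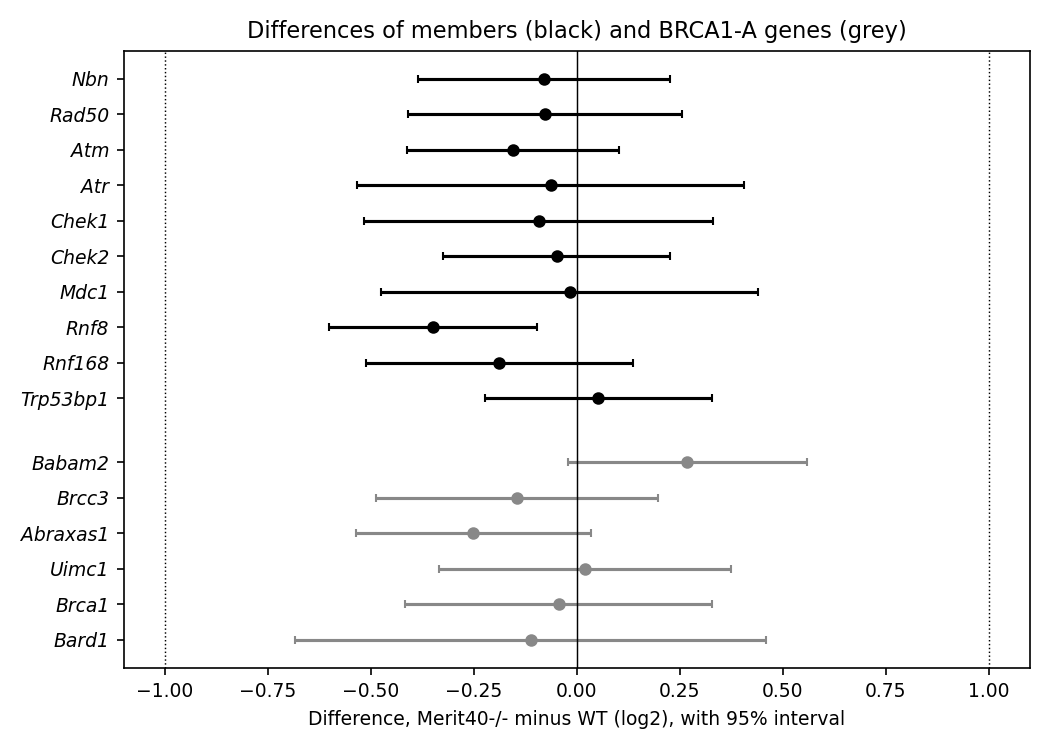
Difference between genotypes (Merit40-/- minus WT, log2) with the 95% interval of limma for the 10 genes in black and, in grey, the BRCA1-A genes other than Babam1. Dotted lines mark a 2-fold difference in either direction, and Rnf8 is the only gene shown whose interval does not include 0.

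The kinase gene Atr varied more within each genotype than between the genotypes. Atr (Entrez Gene 245000) read 7.77, 7.67 and 7.08 in WT and 7.56, 7.58 and 7.20 in Merit40-/-. The array numbered 3 was the lowest of each genotype, though the labels do not state that arrays of the same number belong together. The groups overlapped over most of their range. The difference was -0.064 (SE 0.20, 95% interval -0.53 to 0.41; adjusted p = 0.999 in limma). It became 0.068 without WT replicate 1, 0.019 without WT replicate 2 and 0.060 without Merit40-/- replicate 3, and was -0.28 without WT replicate 3.

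The effector kinases of the checkpoint also overlapped between genotypes. Chek1 (Entrez Gene 12649), whose kinase restrains replication origins and entry into mitosis, read 7.38, 7.33 and 6.88 in WT and 6.82, 7.29 and 7.20 in Merit40-/-. Low values occurred in both genotypes, on WT replicate 3 and Merit40-/- replicate 1. Its difference was -0.093 (SE 0.18, 95% interval -0.52 to 0.33; adjusted p = 0.999 in limma), and 0.049 without Merit40-/- replicate 1. Chek2 (Entrez Gene 50883), whose kinase is activated by ATM, read 7.24, 7.25 and 7.41 in WT and 7.22, 7.37 and 7.16 in Merit40-/-. Its arrays spanned 0.20 within Merit40-/- and 0.16 within WT. The difference of Chek2 was -0.049 (SE 0.12, 95% interval -0.32 to 0.23; adjusted p = 0.999 in limma).

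The MRN genes stayed close to their WT levels. Nbn (Entrez Gene 27354), which encodes the subunit that binds ATM, read 8.02, 8.18 and 8.01 in WT and 7.98, 8.17 and 7.82 in Merit40-/-. Rad50 (Entrez Gene 19360), which encodes the subunit that tethers DNA ends, read 8.64, 8.99 and 8.90 in WT and 8.66, 8.95 and 8.68 in Merit40-/-. For both genes replicate 2 was the highest array of each genotype. Nbn differed by -0.080 (SE 0.13) and Rad50 by -0.078 (SE 0.14; adjusted p = 0.999 in limma for each). The nuclease gene of the complex, Mre11a, read 7.73, 8.00 and 8.19 in WT and 8.00, 7.86 and 8.20 in Merit40-/-, a difference of 0.047 (SE 0.16), so the intervals of all 3 subunits included 0.

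Mdc1 and Trp53bp1, the adaptor and the reader of the chromatin marks, had the differences nearest to 0 along with Chek2. Mdc1 (Entrez Gene 240087) read 8.42, 8.57 and 9.13 in WT and 8.81, 8.47 and 8.78 in Merit40-/-. WT replicate 3 was its highest array, the one on which Atr was lowest. The spread of 0.70 within WT far exceeded the difference of -0.017 (SE 0.20, 95% interval -0.48 to 0.44; adjusted p = 1.0 in limma), which was 0.19 without WT replicate 3. Trp53bp1 (Entrez Gene 27223) read 7.85, 7.73 and 7.76 in WT and 7.93, 7.87 and 7.69 in Merit40-/-. Its difference was 0.053 (SE 0.12, 95% interval -0.22 to 0.33; adjusted p = 0.999 in limma), and it was the only member with a higher mean in Merit40-/-.

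Across arrays the 10 genes did not move as 1 block. On Merit40-/- replicate 3, 5 of the 10 were at their lowest, on WT replicate 2, 5 were at their highest, and Merit40-/- replicate 2 held neither the highest nor the lowest value of any. Relative to the WT mean of each gene, the 10 averaged -0.0076, 0.055 and -0.047 on WT replicates 1 to 3 and -0.12, -0.020 and -0.17 on Merit40-/- replicates 1 to 3. Members spanned 0.24 to 0.70 over the 6 arrays, while the median gene spanned 0.49. A fixed list of 30 cell division genes averaged 0.087, 0.041 and -0.13 in WT and -0.36, 0.00069 and -0.19 in Merit40-/- on the same scale. The proliferation marker Mki67 read 9.45, 9.32 and 9.34 in WT and 8.90, 9.44 and 8.89 in Merit40-/-, and the topoisomerase Top2a 9.58, 9.44 and 9.36 against 8.96, 9.55 and 9.23. Merit40-/- replicates 1 and 3 were thus low both for the cell division genes and for the mean of the 10, and they are the arrays with high muscle and osteoclast markers; the part of any of these in the members' values was not tested.

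**Figure D3:**
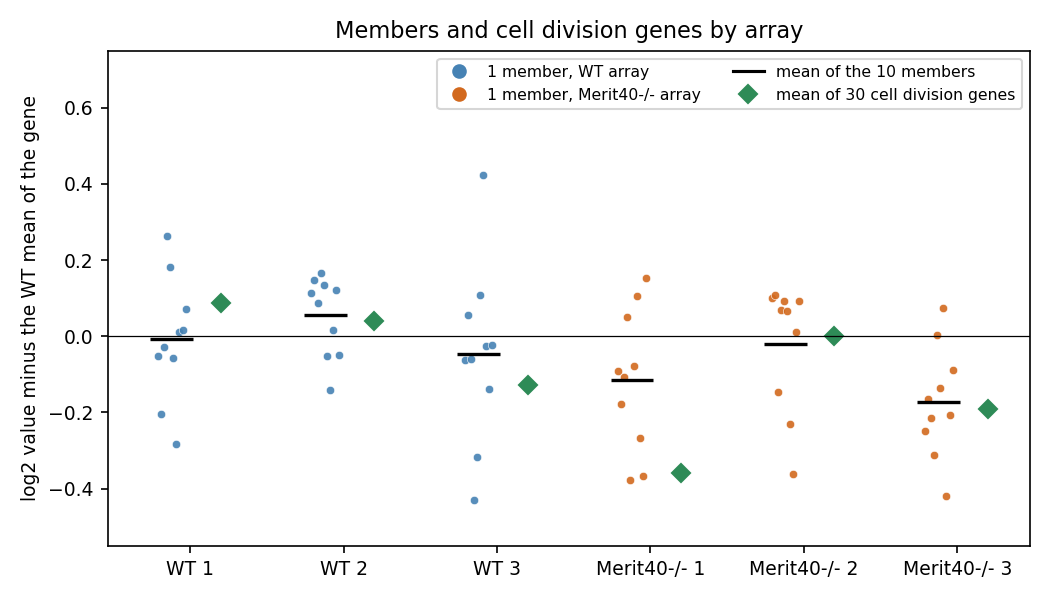
Each point is 1 of the 10 genes on 1 array, as its log2 value minus its own WT mean; bars mark the mean of the 10 and green diamonds the mean of 30 cell division genes on that array. The mean of the 10 was lowest on Merit40-/- replicates 3 and 1, at -0.17 and -0.12, and points scatter widely around it on every array.

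The BRCA1-A complex reads the ubiquitin made by RNF8 and RNF168. Of its 7 genes, Babam1 alone passed the test. It fell by 3.94 (SE 0.14, adjusted p = 5.04e-05 in limma), from 8.00 ± 0.079 in WT to 4.06 ± 0.21 in Merit40-/- (SD, n = 3). The other 6 had differences from -0.25 to 0.27 with a median of -0.078. Babam2, which encodes a scaffold subunit, read 8.45, 8.55 and 8.44 in WT and 8.65, 8.66 and 8.94 in Merit40-/-, higher on every Merit40-/- array without passing the test (0.27, SE 0.13; adjusted p = 0.999 in limma). Abraxas1, which encodes the central scaffold, read 8.15, 8.08 and 7.88 in WT and 7.75, 7.88 and 7.72 in Merit40-/- (-0.25, SE 0.12). The WT and Merit40-/- arrays nearest to each other both read 7.88. Uimc1, which encodes the ubiquitin-binding subunit RAP80 that ties the complex to the chains, differed by 0.020 (SE 0.15), the deubiquitinase gene Brcc3 by -0.14 (SE 0.15), Brca1 by -0.044 (SE 0.16) and its partner Bard1 by -0.11 (SE 0.25). The arrays of these 4 genes overlapped.

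Break sensing and kinase activation beyond the 10 genes was covered by 27 measured genes, of which 0 passed the adjusted test and 1 had an unadjusted p under 0.05 in limma. In this list 12 genes had lower and 15 higher means in Merit40-/-, with a median difference of 0.0076 beside 0.0052 over all genes. Rpa3, which encodes the small subunit of the single-strand binding protein that recruits ATR, read 7.41, 7.48 and 7.40 in WT and 6.84, 7.05 and 7.03 in Merit40-/-. All its Merit40-/- arrays were lower, and the difference of -0.45 (SE 0.12) had an unadjusted p of 0.00444 and an adjusted p of 0.999 in limma. The other subunits overlapped between genotypes, with Rpa1 at -0.039 (SE 0.14) and Rpa2 at 0.17 (SE 0.16). Etaa1, an activator of ATR, differed by -0.26 (SE 0.21) and Rhno1, a partner of the ATR checkpoint clamp, by 0.17 (SE 0.15). ATR's own partner Atrip differed by 0.13 (SE 0.13), its activator Topbp1 by -0.14 (SE 0.11), and H2ax, the histone gene of the damage mark, by -0.063 (SE 0.27).

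Chromatin ubiquitin enzymes numbered 31 measured genes, with 11 lower and 20 higher means, a median of 0.046 and 0 past the adjusted test (2 at an unadjusted p under 0.05 in limma). Rnf40, a ligase subunit for histone H2B, read 6.42, 6.45 and 6.67 in WT and 6.14, 6.33 and 6.10 in Merit40-/- (-0.32, SE 0.13), while its partner Rnf20 differed by 0.018 (SE 0.17). The deubiquitinase gene Usp44, which opposes RNF168, read 4.36, 4.17 and 4.08 in WT and 4.45, 4.58 and 4.49 in Merit40-/- (0.31, SE 0.12), all under the median of all genes, where RMA compresses differences. The arrays of Rnf40 and Usp44 did not overlap, in opposite directions, and both had an adjusted p of 0.999 in limma. Ube2n, which encodes the conjugating enzyme that works with RNF8, was scattered at 5.86, 6.58 and 6.05 in WT and 6.19, 4.79 and 6.58 in Merit40-/- (-0.31, SE 0.42). Its low mean came from Merit40-/- replicate 2, and without replicates 1 and 3 the difference was -1.37. That fit rests on 1 Merit40-/- array. In it 11 of the 31 genes were lower and 20 higher, with Ube2v2 at 0.72 and Pias4 at 0.53. The RNF8 cofactor gene Herc2 differed by -0.064 (SE 0.11), the RNF168 paralogue Rnf169 by 0.045 (SE 0.15) and Ufl1, a ligase for the ubiquitin-like UFM1, by 0.24 (SE 0.15).

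Partners and effectors of 53BP1 numbered 12 measured genes, 6 lower and 6 higher, with a median of -0.010 and 0 past the adjusted test (1 at an unadjusted p under 0.05 in limma). Mad2l2, which encodes the shieldin subunit REV7, read 8.92, 8.98 and 8.98 in WT and 8.83, 8.57 and 8.57 in Merit40-/-. Its arrays did not overlap, with a difference of -0.31 (SE 0.12; unadjusted p = 0.0356, adjusted p = 0.999 in limma). The shieldin genes Shld1 and Shld2 differed by -0.020 (SE 0.33) and 0.0041 (SE 0.11). Rif1, the 53BP1 effector upstream of shieldin, differed by -0.13 (SE 0.15) and the light chain gene Dynll1 by -0.22 (SE 0.20). The methyltransferase gene Kmt5c differed by 0.11 (SE 0.32) and Pwwp3a by 0.19 (SE 0.15). Kmt5c was highest on Merit40-/- replicate 2, at 8.09 against 6.95 and 6.73 on replicates 1 and 3. Without replicates 1 and 3 its difference was 0.95.

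Checkpoint targets numbered 17 measured genes, with 11 lower and 6 higher means, a median of -0.063 and 0 past the adjusted test (2 at an unadjusted p under 0.05 in limma). Cdkn1a, which encodes the p53-induced inhibitor p21, read 4.92, 5.05 and 5.33 in WT and 5.65, 6.38 and 5.62 in Merit40-/-. All Merit40-/- arrays were higher (0.78, SE 0.22; unadjusted p = 0.00747, adjusted p = 0.999 in limma). Ppm1d, which encodes the phosphatase WIP1 that switches off ATM signalling, read 7.32, 7.43 and 7.37 in WT and 7.66, 7.62 and 7.51 in Merit40-/- (0.22, SE 0.11), also without overlap. Tlk1 was higher without overlap as well (0.17, SE 0.11). The kinase gene Plk3 read 4.80, 4.93 and 4.89 in WT and 4.62, 4.60 and 4.57 in Merit40-/- (-0.28, SE 0.11), lower on every Merit40-/- array and near the median of all genes or below it. Cdc25a, the phosphatase that CHK1 targets, differed by -0.32 (SE 0.25) and the p53 regulator Mdm4 by 0.25 (SE 0.17). Cdc25a was lowest on Merit40-/- replicate 2, at 6.83 against 7.82 and 7.64 on replicates 1 and 3. Without replicates 1 and 3 its difference was -0.92. The ATM-regulated p53 ligase gene Mdm2 differed by -0.20 (SE 0.13) and Wee1 by -0.015 (SE 0.13).

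**Figure D4:**
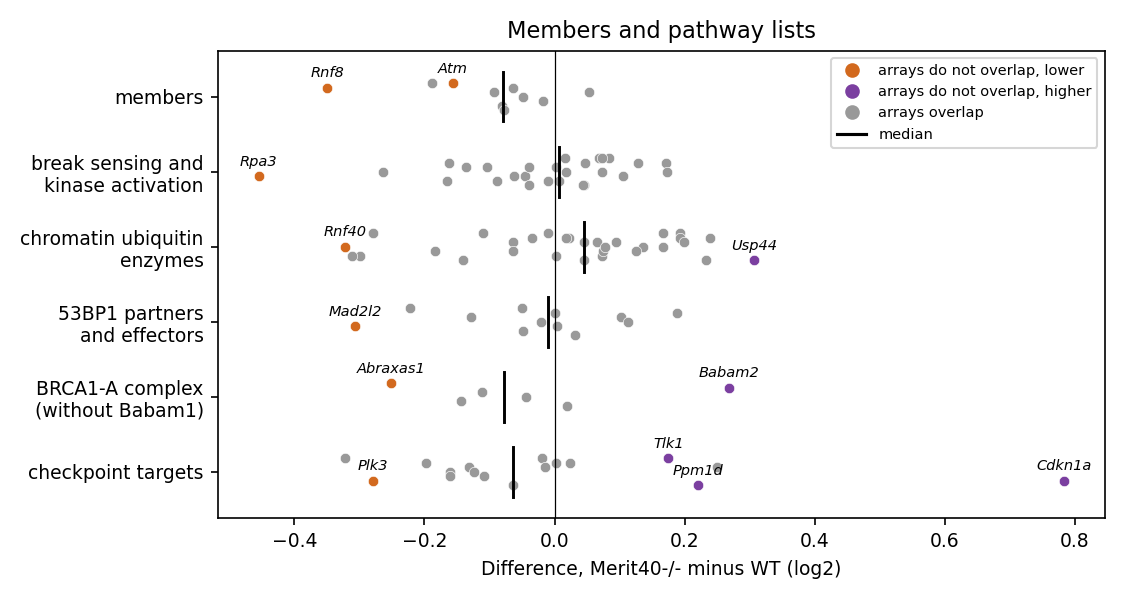
Difference between genotypes (Merit40-/- minus WT, log2) of the 10 genes and of the measured genes of 5 pathway lists, without Babam1, 1 point per gene; colour marks genes whose arrays do not overlap and the black bar is the list's median. The medians lie between -0.079 and 0.046, and Cdkn1a at 0.78 and Rpa3 at -0.45 are the most distant points.

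The 5 pathway lists together held 94 measured genes, 1 of which passed the adjusted test, Babam1. Of the 94, 45 had lower and 49 higher means, with a median difference of 0.0019 beside 0.0052 over all genes. The arrays of 11 (11.7%), Babam1 among them, did not overlap between genotypes, close to the 9.05% of all genes. The share was uneven between lists. It was 3.7% for break sensing and kinase activation, 6.45% for chromatin ubiquitin enzymes and 8.33% for 53BP1 partners and effectors. It was 23.5% for checkpoint targets (4 of 17) and 33.3% for the BRCA1-A genes without Babam1 (2 of 6). Without Merit40-/- replicates 1 and 3, 42 of the 94 were lower and 52 higher, with a median of 0.034, and Babam1 alone passed the adjusted test. Of the 10 other list genes whose arrays did not overlap, Cdkn1a then differed by 1.29 (unadjusted p = 0.000875, adjusted p = 0.396 in limma). The other 9 kept their direction and had unadjusted p-values above 0.05 in limma. Those lower were Mad2l2 at -0.39, Rpa3 at -0.38, Plk3 at -0.28, Rnf40 at -0.18 and Abraxas1 at -0.15. Those higher were Usp44 at 0.38, Ppm1d at 0.25, Tlk1 at 0.24 and Babam2 at 0.18. For Rpa3 and Mad2l2 the unadjusted p rose to 0.0610 and 0.0532.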

How the data were processed

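Each array measured RNA of sorted HSCs. The authors deposited log2 values, 1 per probe set and array. They were made by RMA (the notes also name affy), per the submitters' processing notes. Versions, chip definition and build: not given in the sources used here. RMA equalises the intensity distributions of arrays and compresses differences near background, so levels of different genes were set only against the median of all genes, as a rough guide. Of 25206 probe sets, 23185 carried exactly 1 symbol and 2021 none here. All 23185 Entrez numbers were found in the reference gene table (GRCm38.p6), used for symbols.

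Genotypes were compared gene by gene (limma 3.58.1 under R 4.3.3, functions lmFit and eBayes, with genotype as the single term, 2-sided, no level filter), and p-values were adjusted by Benjamini-Hochberg across all 23185 named genes (threshold 0.05). The procedure was tested on simulated data. The members and lists were chosen with earlier results of these data known. The text names all members, all BRCA1-A genes, Mki67, Top2a and, per other pathway list, the 2 highest and 2 lowest differences. Other list genes were named after their values were seen, as were the promoters and motifs. Of 100 genes on the 5 pathway lists, 94 were measured. Alternatives were a replicate block, an intensity trend, array weights, other scalings, a filter on dim genes, all probe sets, an unmoderated test and arrays left out.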

Additional observations from a re-analysis of the deposited data

How the results depend on the processing

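No member passed the adjusted test under any alternative run, and Rnf8 (-0.39 to -0.31), Atm (-0.19 to -0.11) and Trp53bp1 (0.0027 to 0.12) kept their direction in all 15. The replicate block, intensity trend, filter on dim genes, all probe sets and unmoderated test cannot change a difference. Only the remaining alternatives could have changed a direction. The number of arrays limits the precision, and 1 array decided the direction of several small differences. The cause of these changes was not tested.

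Differences changed sign as follows. Over the fits without 1 array, or without Merit40-/- replicates 1 and 3 together (an alternative chosen after seeing the data), Atr ran from -0.28 to 0.069, Chek1 from -0.25 to 0.094, Chek2 from -0.11 to 0.068, Mdc1 from -0.23 to 0.19, Nbn from -0.17 to 0.10, Rad50 from -0.18 to 0.11 and Rnf168 from -0.29 to 0.011. Rad50 and Rnf168 were above 0 only without both of those arrays. Chek1 was above 0 without Merit40-/- replicate 1 (0.049), Mdc1 without WT replicate 3 or Merit40-/- replicate 2 (0.19 and 0.090), Chek2 without WT replicate 3 (0.0051), Nbn without Merit40-/- replicate 3 (0.0044), and Atr at 0.068 and 0.019 without the first or the second WT array and at 0.060 without Merit40-/- replicate 3. With array weights Mdc1 was 0.016. Without both arrays limma called 2 genes over all genes, Babam1 as lower and the microRNA gene Mir3079, named after its values were seen, as higher; that fit assumes that the lone Merit40-/- array varies like the WT arrays. The unmoderated test called 0 of 23185 genes and 0 of the 94 pathway genes, where limma called 1 of each. It had 990 genes (4.27%) at an unadjusted p under 0.05, where limma had 979 (4.22%). At that level were 2 of the 10 members in the unmoderated test, Rnf8 and Atm, but only Rnf8 in limma. The number of members at that level thus depended on the moderation. Leaving out single arrays called 1 gene each time, 1 pathway gene and 0 members, and gave 2 to 5 members without overlap, a check also chosen after seeing the data, while 16.9% to 19.6% of all genes did not overlap, against 9.05% with all arrays. Without both of the marker-rich arrays 3 members did not overlap, beside 50.9% of all genes. Centring each array on its median and quantile normalization both kept that count at 2 and put the median difference of all genes at 0.017 and -0.0013, beside 0.0052 as deposited.

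Same-numbered arrays did not deviate together (r = -0.048, -0.0027 and 0.044 for replicates 1 to 3, across genes). With the replicate block, limma called 1 gene, 1 pathway gene and 0 members, and Rnf8 had an unadjusted p of 0.0296.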

Other observations

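The start of Atm lies 376 bases from that of Npat, a regulator of histone genes that is read in the opposite direction. Npat read 7.83, 7.76 and 7.56 in WT and 7.69, 7.38 and 7.91 in Merit40-/-, with a difference of -0.053 (SE 0.16), and its arrays overlapped where those of Atm did not. Atr has such a neighbour in 1700065D16Rik, 80 bases away, which read 2.75 to 3.13 in WT and 2.90 to 3.29 in Merit40-/-, below the median of all genes. None of the other 6 members with an entry in the RefSeq promoter table had an oppositely read gene start within 1000 bases in it, and Nbn and Rad50 were not searched.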
